A study of Mus musculus with 6 samples.

Results

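The genes described here were 39 genes of the integrated stress response and the unfolded protein response in mouse thymocytes, chosen by symbol from a table of 22322 genes. They comprised the kinases that phosphorylate eIF2alpha, the transcription factor Atf4 and its relatives, genes that these factors are known to switch on, and regulators of the endoplasmic reticulum. The rule that names them uses known roles and no measured value, but it was set with earlier results of these data known. All 39 symbols were in the table, 38 had at least 1 count, and 33 had enough counts to be tested.

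In the integrated stress response, kinases that sense amino acid shortage, haem shortage or unfolded proteins phosphorylate eIF2alpha, which lowers general translation while the Atf4 message is translated more. ATF4 protein then binds, often together with C/EBP proteins, to genes for amino acid uptake, amino acid synthesis and transfer RNA charging, and to genes for CHOP and other regulators. The unfolded protein response of the endoplasmic reticulum shares the kinase PERK with this pathway and adds the IRE1 and ATF6 branches, whose targets include chaperones such as BiP. Because much of the control is by translation and by splicing, the messenger RNA of Atf4 or Xbp1 is only a partial readout of either pathway.

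RNA was sequenced from sorted CD4+CD8+ double-positive (DP) thymocytes, with 3 libraries per group. Controls were Paxbp1 fl/fl littermates without Cre, and Paxbp1 cKO mice were Paxbp1 fl/fl Lckcre, in which a Cre driven by the Lck promoter acts in cells of the T lineage. Both groups were untreated C57BL/6 mice that carried the floxed allele, were 4 to 7 weeks old and were of mixed sex, and a Cre-only group was not analysed here. The sources do not say whether each library came from 1 animal or from a pool, so the p-values measure only the spread between these libraries, which may be technical.

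The libraries held 18963775 to 26252248 counts. Paxbp1 itself, of which the deletion removes exon 8 alone, had 774, 318 and 400 counts in the controls and 851, 905 and 1075 in the cKO libraries, with an adjusted p of 0.0977 in the edgeR test, so a count over the whole gene does not check the genotype. All 12 DP marker genes were expressed, and their summed level was 15830 to 18391 counts scaled to a common library size (CPM) in controls and 11437 to 13433 CPM in cKO libraries, with 4 of the 12, among them the abundant Satb1 and Rag1, called lower and none higher by edgeR. The 4 DP markers called lower were 33.3% of the 12, against 5.89% of all tested genes. Markers of macrophages were low, with sums of 56.0 to 102 CPM in controls and 121 to 167 CPM in cKO libraries. Of these, 6 of the 14 tested (20 listed, Mertk at 0) were called higher, or 42.9%, against 4.47% of all tested genes. Among the 6, Adgre1 had no count in any control, was tested through the cKO libraries only and so had to differ. The abundant Apoe and Lyz2 had log2 fold changes of 0.76 and 1.502 and were not called (edgeR adjusted p 0.0625 and 0.0778). The other marker lists, for dendritic cells, B cells, neutrophils, erythroid cells and thymic epithelium, gave no gene that was called higher and 1 called lower, the B cell gene Cd79b. Each listed 8 genes, of which 3, 3, 0, 5 and 3, in that order, had enough counts to be tested. No neutrophil gene could thus be called, and few genes of the other lists could be. Clec9a (dendritic cells), Ly6g, Mpo, Elane and Retnlg (neutrophils) and Krt5 and Krt14 (thymic epithelium) were at 0. Every listed B cell and erythroid gene had counts, Pax5 in few libraries. Summed levels were 948 to 1300 CPM in controls and 870 to 911 CPM in cKO libraries for B cell genes, of which Ighm made up most, and 27.5 to 141 and 1.92 to 48.8 CPM for erythroid genes. In bulk libraries such as these, fewer cells of a type and less RNA per cell cannot be told apart.

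The question here was whether loss of Paxbp1 in DP thymocytes changed the messenger RNA of these stress genes. A subset of them was higher in the cKO: the factors Ddit3 and Cebpb, the serine and one-carbon enzymes Psat1, Shmt2 and Mthfd2, the amino acid transporters Slc7a5 and Slc7a3, and the chaperone Hspa5. Ddit4 and Vldlr were lower. The other 23 tested members, among them Atf4 and the 3 eIF2alpha kinases on the list, did not pass the test. A call required an adjusted p under 0.05, from the quasi-likelihood test of edgeR after adjusting by Benjamini-Hochberg for all 11488 tested genes.

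The 8 members called higher were 24.2% of the 33 tested, against 4.47% of all tested genes, and the 2 called lower were 6.06%, against 5.89%. With a log2 fold change above 1 as a further condition, 3 members were higher (all genes, 1.53%), namely Ddit3, Slc7a5 and Slc7a3, and 2 were lower (all genes, 1.23%), namely Ddit4 and Vldlr. In 11 members every cKO library lay above every control library, as in 15.7% of all tested genes, and in 4 every cKO library lay below, as in 17.3%. The median log2 fold change (cKO over control) of the 33 members was 0.48, with 25 positive and 8 negative, against a median of 0.00 over all tested genes. Slc7a3 and Vldlr reached the count filter through 1 group only and so had to differ. Among the 31 members that did not depend on such a group, 7 (22.6%) were higher, 1 (3.23%) was lower and the median was 0.48. Of the calls with the fold condition, Ddit3, Slc7a5 and Ddit4 remained. The number called higher rested on single libraries: it was 2 without control library 2, 1 without cKO library 1 and 1 without cKO library 3. The calls over all genes fell as well, from 514 higher to 178, 179 and 42 in these fits, and the median of the members lay between 0.39 and 0.59 over the 6 fits that each left out 1 library.

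**Figure D1:**
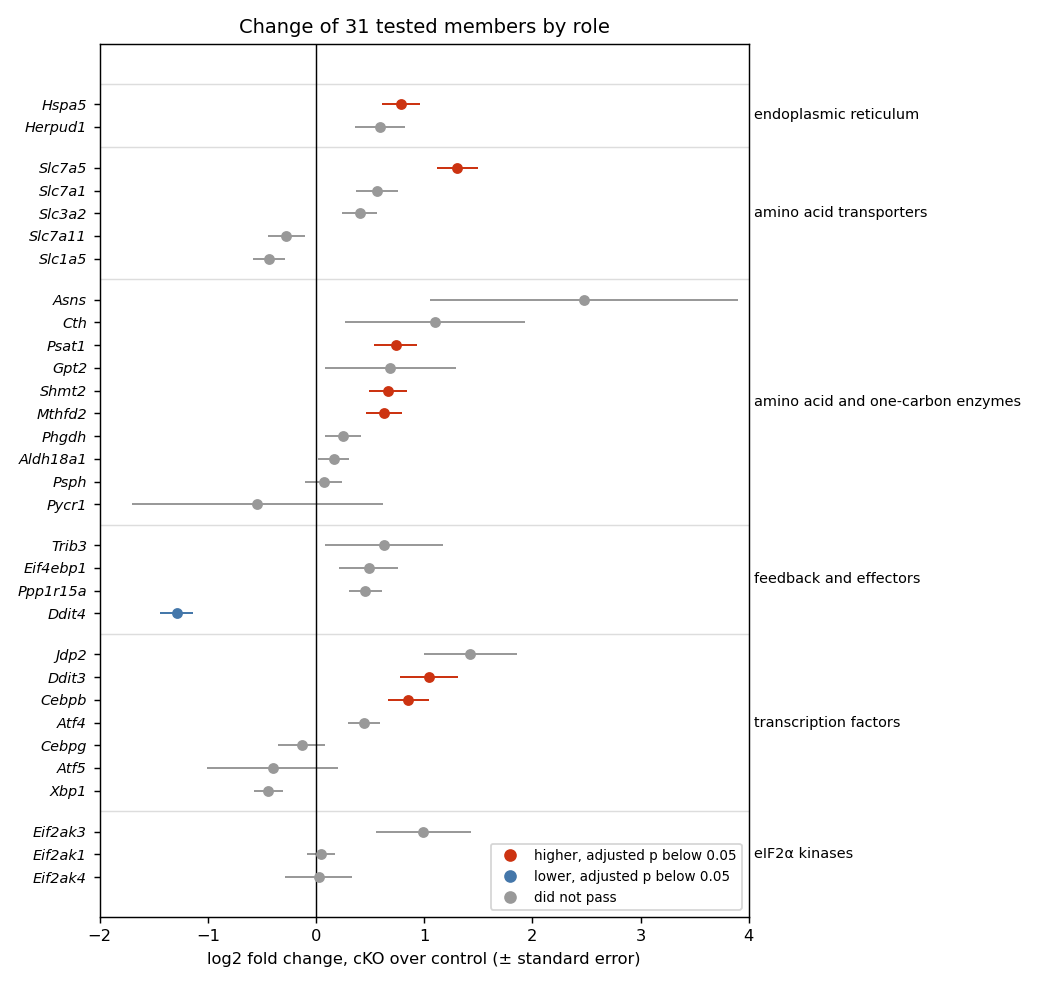
Log2 fold change (cKO over control, x axis) with its standard error for 31 tested members, ordered by role, with colour for the call at an adjusted p under 0.05. Slc7a3 and Vldlr, each at or near 0 in 1 group, are left out, and Slc7a5 at 1.31 and Ddit4 at -1.29 stand at opposite ends of the called genes.

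**Figure D2:**
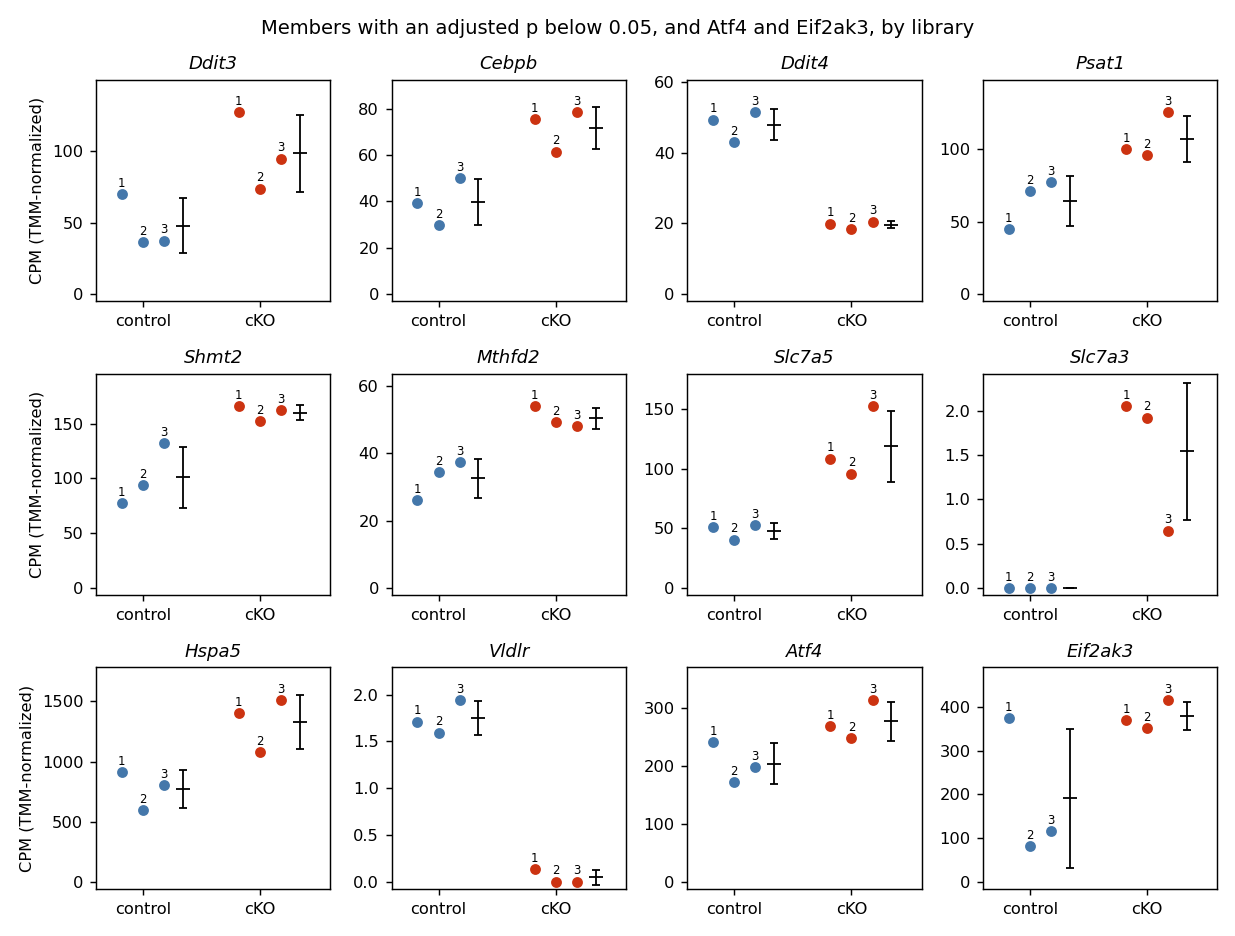
CPM (y axis) of the 10 called members, Atf4 and Eif2ak3 in each of the 3 control (blue) and 3 cKO (red) libraries, 1 panel per gene, with numbered points for libraries and black bars for the group mean ± SD. Slc7a5, Hspa5 and Ddit3 show cKO points above all control points, and Ddit4 shows them below.

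Promoter sequence was examined for the elements through which these pathways are known to act, because the members share regulators by definition. RefSeq windows of 250 bases before and 50 after the annotated start (GRCm38.p6) were matched for 34 of the 39 members, in 44 windows. On both strands, 3 motifs were searched: the C/EBP-ATF response element (CARE, TGATGNAA), to which ATF4 binds with C/EBP partners, the full cyclic AMP response element (CRE, TGACGTCA), and the endoplasmic reticulum stress element (ERSE), which is read by ATF6 and XBP1. No matches of different motifs overlapped. Shown here are the single ERSE match, the single CRE match and 6 examples of CARE matches, in lower case with the matching letters in capitals.

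Hspa5: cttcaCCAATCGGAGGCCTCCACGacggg
Ppp1r15a: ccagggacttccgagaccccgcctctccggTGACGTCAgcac
Slc7a11: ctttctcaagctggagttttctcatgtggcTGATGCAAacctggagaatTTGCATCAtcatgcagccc
Asns: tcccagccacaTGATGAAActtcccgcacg
Chac1: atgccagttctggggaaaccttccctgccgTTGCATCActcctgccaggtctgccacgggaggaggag
Herpud1: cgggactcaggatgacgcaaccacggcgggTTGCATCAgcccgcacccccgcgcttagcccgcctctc
Jdp2: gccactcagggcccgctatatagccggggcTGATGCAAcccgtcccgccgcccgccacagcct
Vldlr: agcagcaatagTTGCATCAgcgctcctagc

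These stretches are read 5′ to 3′ on the strand of the gene, upstream of the RefSeq start. By GENCODE M21, those of Hspa5, Asns, Jdp2 and Vldlr lie within the annotated span of the gene. For Hspa5, Asns and Vldlr, an annotated exon comes within 30 bases of the match. On GRCm38.p6, the Hspa5 stretch is chr2:34772020-34772048 (plus strand), Ppp1r15a chr7:45526269-45526310 (minus), Slc7a11 chr3:50443642-50443709 (minus), Asns chr6:7693214-7693243 (minus), Chac1 chr2:119351019-119351086 (plus), Herpud1 chr8:94386287-94386354 (plus), Jdp2 chr12:85599353-85599415 (plus) and Vldlr chr19:27216809-27216838 (plus). Slc7a11, the cystine transporter subunit, held CARE matches in both orientations, whose first bases lay 66 and 47 bases upstream of the start. A CARE match was present in 10 of 44 member windows (22.7%) and in 1304 of 32851 windows of all genes (3.97%), and since the members include well-known ATF4 targets, this share describes the choice of genes. The ERSE match was in 1 member window (2.27%) and in 0.119% of all windows, and the CRE match in 1 (2.27%) and in 1.79%.

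Of the 10 members with a CARE match in the window, 7 were tested, none was called higher and 1, Vldlr, was called lower after passing the count filter through the controls alone. Of the 24 members with a window that lacked the letters, 21 were tested, 6 were higher and 1 was lower. Over all tested genes 4.47% were higher, and the difference between these sets was not tested. Both called transporters, Slc7a5 and Slc7a3, had no window. A match is a description of letters, and a window without one says nothing about elements elsewhere in the gene.

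The eIF2alpha kinases came first in the pathway. Eif2ak3, which encodes PERK, the kinase of the endoplasmic reticulum, had 374, 82.1 and 116 CPM in the controls and 370, 352 and 416 CPM in the cKO libraries. Control library 1 lay within the cKO range, and the other two controls lay far below it. The means were 191 ± 160 and 379 ± 33.0 CPM (SD, n = 3 each), the log2 fold change was 0.99 (SE 0.44), and the gene was not called (edgeR adjusted p 0.173). Leaving out control library 1 gave 1.93 on the log2 scale with an adjusted p of 3.08e-04, so this gene's call depended on that library alone. Eif2ak1, the haem-regulated kinase, and Eif2ak4, the amino acid sensor GCN2, had log2 fold changes of 0.05 and 0.02, with overlapping groups and adjusted p-values of 0.858 and 0.975, and the sign of both changed when single libraries were left out. The remaining kinase of the family, Eif2ak2 (PKR, which senses double-stranded RNA), was on the list of other pathway genes. It had 7.78, 14.4 and 7.92 CPM in the controls and 15.8, 18.9 and 15.6 CPM in the cKO, without overlap, and its log2 fold change of 0.74 (SE 0.27) was not called (edgeR adjusted p 0.107).

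Atf4 itself was expressed in all libraries, at 242, 172 and 198 CPM in the controls and 269, 249 and 314 CPM in the cKO. Every cKO library lay above every control, but by a narrow margin. The log2 fold change was 0.44 (SE 0.15), from 204 ± 35.2 to 277 ± 33.5 CPM (SD, n = 3 each), and the edgeR adjusted p of 0.0811 missed the threshold. DESeq2 and the edgeR fit without control library 1 did call it.

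Among the other transcription factors, Ddit3 and Cebpb were higher. Ddit3 encodes CHOP, a factor that ATF4 induces and that is tied to cell death under lasting stress, and it had 69.9, 36.5 and 37.5 CPM in the controls and 127, 73.8 and 94.8 CPM in the cKO. Control library 1 came close to cKO library 2, without overlap. The means were 48.0 ± 19.0 and 98.6 ± 26.8 CPM (SD, n = 3 each), which gave a log2 fold change of 1.04 (SE 0.27) and an edgeR adjusted p of 0.0373. The call was lost without control library 2 or 3 and without cKO library 1 or 3. A second identifier with the symbol Ddit3, which shares 105 bases of exon with the first in GENCODE M21, held 2 counts in all and was not added.

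Cebpb, a C/EBP factor that can partner ATF4, had 39.4, 29.9 and 49.9 CPM in the controls and 75.6, 61.5 and 78.4 CPM in the cKO. The groups were well separated, at 39.7 ± 10.01 and 71.8 ± 9.03 CPM (SD, n = 3 each), with a difference of 0.85 on the log2 scale (SE 0.19) and an adjusted p of 0.0228 from edgeR. The call was lost without control library 2, cKO library 1 or cKO library 3. In GENCODE M21, 20.7% of the exonic length of Cebpb is shared with Tmem189 on the opposite strand, and the log2 fold change of Tmem189 had the opposite sign, at -0.73 (adjusted p 0.0623, edgeR). No source used here says whether reads were counted by strand. Cebpb is also a gene of myeloid cells, and the macrophage marker sums given above were higher in the cKO. The part of such cells in its level was not tested.

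Jdp2, a bZIP factor of the AP-1 family, was low at 1.92, 2.005 and 4.23 CPM in controls and 8.58, 4.53 and 8.96 CPM in the cKO, without overlap. Its log2 fold change of 1.43 (SE 0.43) was one of the larger ones, yet the edgeR adjusted p was 0.0605, and 5 of 13 alternative settings called it. Xbp1, the factor made active by IRE1 splicing, went the other way, with 352, 341 and 331 CPM in the controls and 292, 210 and 252 CPM in the cKO. All cKO libraries lay below the controls, with a log2 fold change of -0.44 (SE 0.13) and an edgeR adjusted p of 0.0578, and 4 alternatives called it. These counts do not separate spliced from unspliced Xbp1. Atf5 and Cebpg had negative values of -0.40 and -0.13 with overlapping groups (adjusted p 0.720 and 0.742), and both signs changed without control library 2. Nupr1, a small stress-induced chromatin protein, had 2, 1 and 3 counts in the controls and none in the cKO libraries, too few to test.

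The feedback and effector genes were led by a decrease. Ddit4 encodes REDD1, an inhibitor of mTORC1 that stress, hypoxia and glucocorticoids can induce, and it had 49.4, 43.1 and 51.4 CPM in the controls and 19.9, 18.5 and 20.5 CPM in the cKO. Each group was tight and the groups lay far apart, at 48.0 ± 4.34 and 19.6 ± 1.04 CPM (SD, n = 3 each). The log2 fold change was -1.29 (SE 0.15), the edgeR adjusted p was 0.0035, and the call held in all 13 alternative settings, the largest adjusted p being 0.0287. This was the member with the smallest adjusted p, and its direction was opposite to that of most members.

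Ppp1r15a, which encodes GADD34, the inducible subunit of the eIF2alpha phosphatase, had 570, 555 and 680 CPM in the controls and 998, 662 and 815 CPM in the cKO. Control library 3 lay slightly above cKO library 2, and the log2 fold change of 0.46 (SE 0.15) missed the threshold with an edgeR adjusted p of 0.0858, and only DESeq2 among the alternatives called it. Trib3, a pseudokinase that restrains ATF4 and AKT, had 11.2, 2.11 and 3.999 CPM in the controls and 12.1, 4.89 and 9.65 CPM in the cKO. Control library 1 was again in the cKO range, as for Eif2ak3, and the log2 fold change of 0.63 (adjusted p 0.499) became 1.53 (adjusted p 0.0494) without it. Eif4ebp1, a translational repressor, had a log2 fold change of 0.48 (adjusted p 0.273). Chac1, a glutathione-degrading enzyme that is a sensitive ATF4 and CHOP target, had 0, 8 and 0 counts in the controls and 0, 13 and 23 in the cKO and was too low to test.

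Among the 10 enzymes of amino acid and one-carbon metabolism, 3 (30%) were called higher and none lower. Over all tested genes these shares were 4.47% and 5.89%. Psat1, the aminotransferase of serine synthesis, had 44.7, 71.2 and 77.2 CPM in the controls and 100, 96.1 and 126 CPM in the cKO. Shmt2, which splits serine in mitochondria to feed the folate pool, had 77.7, 93.8 and 132 CPM and 166, 153 and 162 CPM. Mthfd2, the next mitochondrial enzyme of that folate route, had 26.0, 34.3 and 37.3 CPM and 54.0, 49.2 and 48.1 CPM. In all 3 genes control library 1 was the lowest and the groups did not overlap, and in Shmt2 and Mthfd2 the cKO libraries lay close together.

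The log2 fold changes were 0.73 (SE 0.20) for Psat1, 0.66 (SE 0.18) for Shmt2 and 0.63 (SE 0.17) for Mthfd2, with edgeR adjusted p-values of 0.0447, 0.0409 and 0.0394. All 3 lay just inside the threshold, and the calls of Psat1 and Shmt2 were lost without control library 2 or any single cKO library, and that of Mthfd2 without any library other than control 1. Phgdh and Psph, the enzymes that stand before and after Psat1 in serine synthesis, were not called, at 0.25 (adjusted p 0.363) and 0.07 (adjusted p 0.839), the latter with a sign that changed without control library 1 or cKO library 2. Phgdh is uncertain, since 12 pseudogenes share at least 95% identity with it over 277 to 1608 bases and none of them is in the table. Aldh18a1 of proline synthesis had a log2 fold change of 0.16 (adjusted p 0.493).

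Asns, asparagine synthetase and a classic ATF4 target, was nearly silent in DP thymocytes, with 0.104, 0.566 and 0 CPM in the controls and 2.05, 0 and 1.62 CPM in the cKO. The cKO libraries ran from none to the highest values seen, and the adjusted p was 0.290. Pycr1 of proline synthesis, Cth of cysteine synthesis and Gpt2 of alanine synthesis were also low, with mean levels under 5 CPM in both groups, and none was called (adjusted p 0.807, 0.428 and 0.504).

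The amino acid transporters held the largest increase among well-expressed members. Slc7a5 encodes LAT1, the main importer of leucine and other large neutral amino acids in activated T cells, and it had 51.0, 40.5 and 52.9 CPM in the controls and 109, 96.0 and 153 CPM in the cKO. The lowest cKO library was well above the highest control. The means were 48.1 ± 6.68 and 119 ± 29.7 CPM (SD, n = 3 each), with a log2 fold change of 1.31 (SE 0.19) and an edgeR adjusted p of 0.0052, and the call held in all 13 alternative settings, the largest adjusted p being 0.0371. Slc3a2, the CD98 heavy chain with which LAT1 pairs, had 308, 241 and 353 CPM in the controls and 405, 329 and 458 CPM in the cKO. Here control library 3 exceeded cKO library 2, and the log2 fold change of 0.40 (SE 0.16) was not called (edgeR adjusted p 0.143).

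Slc7a3, a cationic amino acid transporter on chromosome X, had no count in any control library and 45, 37 and 14 counts in the cKO libraries. With a floor of 3 counts per control library it was at least 10.9-fold higher, at 1.54 ± 0.779 CPM (SD, n = 3). The edgeR adjusted p was 0.0126, but Slc7a3 passed the count filter only through the cKO group and so had to differ. The call was lost without cKO library 1 or 3, and the gene remained among the least expressed members. Slc7a1, the cationic transporter CAT1, had 14.2, 14.5 and 18.2 CPM in the controls and 26.1, 19.8 and 23.7 CPM in the cKO, without overlap, but its log2 fold change of 0.57 (SE 0.19) had an edgeR adjusted p of 0.0894.

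Not all transporters had positive values. Slc1a5, the glutamine carrier ASCT2, had 255, 198 and 197 CPM in the controls and 178, 167 and 135 CPM in the cKO, all below the controls, with a log2 fold change of -0.44 (SE 0.15) and an edgeR adjusted p of 0.0841, and DESeq2 called it. Slc7a11, whose promoter carried the pair of CARE matches, had a log2 fold change of -0.27 (adjusted p 0.345) with overlapping groups. Its value is uncertain, since 373 bases of it share at least 95% identity with the tubulin genes Tuba1a, Tuba1b and Tuba1c, which are in the table. Slc6a9, a glycine transporter, had 18 counts in cKO library 1 and none in the other libraries.

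Of the 2 endoplasmic reticulum members, Hspa5 was called. It encodes BiP, the main luminal chaperone and the usual readout of endoplasmic reticulum stress, and it had 914, 598 and 802 CPM in the controls and 1401, 1077 and 1512 CPM in the cKO. No control library reached the cKO range. The means were 772 ± 160 and 1330 ± 226 CPM (SD, n = 3 each), with a log2 fold change of 0.79 (SE 0.17) and an edgeR adjusted p of 0.0205, a call that was lost without control library 2, cKO library 1 or cKO library 3. Herpud1, a membrane protein of endoplasmic reticulum-associated degradation, had 192, 126 and 151 CPM in the controls and 291, 152 and 265 CPM in the cKO. Library 2 of the cKO lay among the controls, and the log2 fold change of 0.59 (SE 0.23) was not called (edgeR adjusted p 0.127), though DESeq2 and the fit without cKO library 2 called it.

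The secreted and surface proteins were close to absent. Vldlr, a lipoprotein receptor that PERK and ATF4 can induce in liver, had 33, 31 and 50 counts in the controls and 3, 0 and 0 in the cKO libraries. The summed cKO count, scaled to depth, was 2.74% of the control level. Its 95% exact interval of 0.557% to 8.22% covers counting error only. The edgeR adjusted p was 0.0175, but Vldlr passed the count filter only through the controls and so had to differ. The call was lost without control library 2 or 3 and without cKO library 2 or 3. Gdf15, a stress cytokine, had 4, 0 and 4 counts in the cKO and none in the controls, Stc2 had 1 count in cKO library 3, and Fgf21, a stress hormone of liver, was listed at 0 throughout.

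Per unit of transcript length the members spanned a wide range of levels. In control libraries the highest levels per transcript length and depth (FPKM, as deposited) were those of Hspa5 (293 ± 65.2), Ppp1r15a (254 ± 26.9), Slc3a2 (178 ± 34.7), Xbp1 (165 ± 8.16), Phgdh (126 ± 27.9) and Atf4 (118 ± 21.9), each as mean ± SD over 3 libraries. Neighbours in this order lay within 1 SD of each other, apart from Ppp1r15a over Slc3a2 and Xbp1 over Phgdh. In the cKO the first 3 places were again Hspa5 (514 ± 85.8), Ppp1r15a (354 ± 72.6) and Slc3a2 (244 ± 38.6). Ddit3 had 54.7 ± 21.9 FPKM in the controls and 113 ± 30.3 in the cKO. The message for the phosphatase subunit that ends eIF2alpha phosphorylation was thus among the most abundant of the set in both groups, whereas Asns, Cth, Atf5, Pycr1 and Gpt2 had control means below 1 FPKM.

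**Figure D3:**
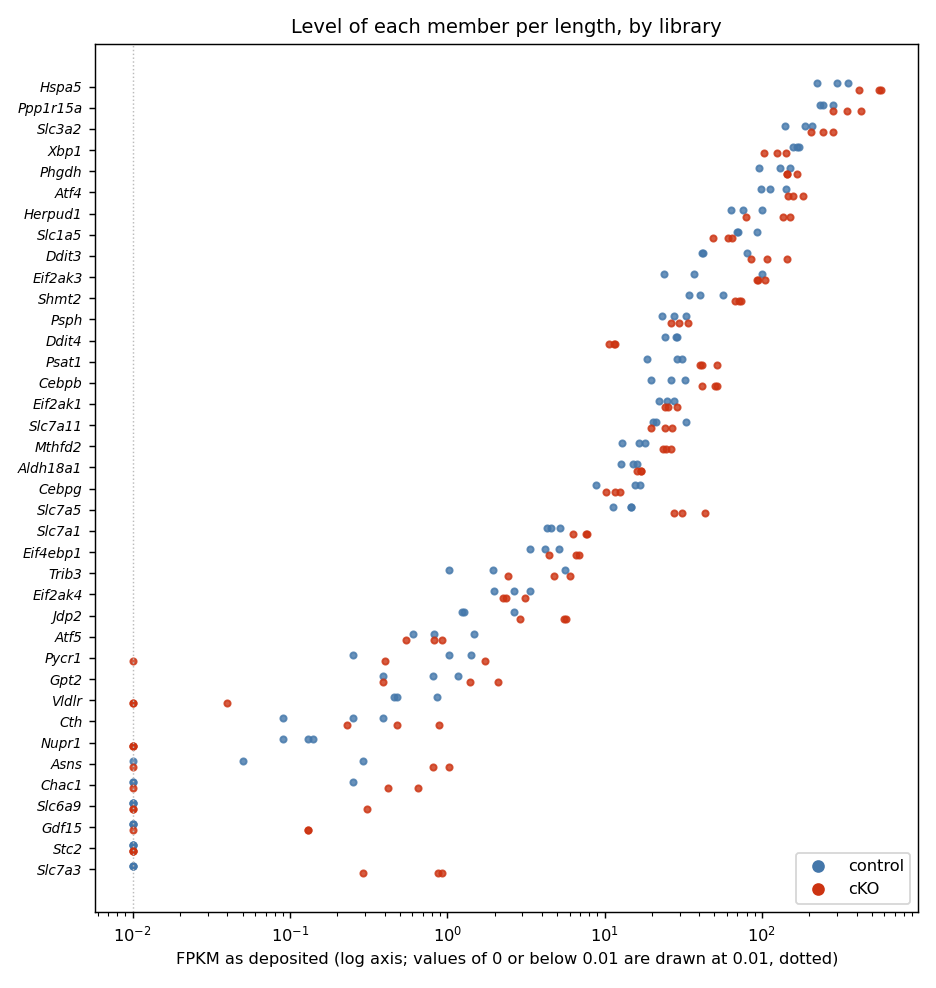
FPKM (log axis, with 0 drawn at 0.01) of the members with a count, for each of the 3 control and 3 cKO libraries. Hspa5 and Ppp1r15a head the order in both groups, and Fgf21, listed at 0 in every library, is left out.

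Summed over the members, the level was 4225, 3375 and 4048 CPM in the controls and 5601, 4481 and 5660 CPM in the cKO libraries. Library 2 of the cKO was the lowest of its group for 23 of the 33 tested members. The share of all tested genes for which this held was not computed. Immediate early genes, which respond to handling of cells as well as to receptor signals, also had their lowest cKO value in library 2, with sums of 4149, 3359 and 3775 CPM in the controls and 9076, 4262 and 6109 CPM in the cKO libraries, and 5 of the 11, Junb and Nr4a1 among them, were called higher by edgeR. The 7 listed DNA replication genes, led by Mcm6, Pcna and Mcm3 and a sign of cycling cells, were all called higher, with sums of 2595 to 3784 CPM in controls and 5090 to 6687 CPM in cKO libraries. The calls were 45.5% of the immediate early genes and 100% of the replication genes, against 4.47% of all tested genes. The part of either in the members' values was not tested.

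Other genes of the same pathways were taken from 5 lists with 85 genes in the table, of which 83 were tested. Of these, 8 were called higher, 2 lower and 73 neither, with 58 positive values and a median log2 fold change of 0.14, beside 0.48 for the members. The shares were 9.64% higher and 2.41% lower, against 4.47% and 5.89% of all tested genes, whose median was 0.00. The groups did not overlap in 28 genes with higher cKO values and in 10 with lower ones, against 15.7% and 17.3% of all tested genes.

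Among these 5 lists the mitochondrial protein stress genes had the largest share of calls, 3 of 10 tested genes, all higher. This was 30%, against 4.47% called higher over all tested genes. They were the 3 mitochondrial chaperones Hspd1 (HSP60), Hspa9 (mortalin) and Hspe1 (HSP10, the partner of HSP60). Hspd1 had 172, 210 and 208 CPM in the controls and 379, 322 and 347 CPM in the cKO, and Hspa9 had 207, 192 and 218 CPM and 366, 315 and 361 CPM. For both, the cKO libraries were close together and far above the controls. On the log2 scale the differences were 0.83 for Hspd1, 0.76 for Hspa9 and 0.70 for Hspe1, and edgeR gave adjusted p-values of 0.00598, 0.00611 and 0.0330.

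In the list of other ATF4 targets, 3 of 23 tested genes (13%) were higher and none lower, against 4.47% and 5.89% of all tested genes. Yars and Aars, which charge transfer RNA with tyrosine and alanine, were higher by 0.58 and 0.63 on the log2 scale (adjusted p 0.0246 and 0.0323, edgeR). Atf3, a bZIP factor that is also an immediate early gene, had 0, 4 and 9 counts in the controls and 111, 32 and 37 in the cKO libraries (edgeR adjusted p 0.0330), and it passed the count filter only through the cKO group. Aldh1l2, a mitochondrial folate enzyme, was listed at 0.

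The endoplasmic reticulum lists held few calls. Of 19 chaperones and folding enzymes only Calr, the lectin chaperone calreticulin, was called higher, by 0.49 on the log2 scale (adjusted p 0.0466, edgeR), and none was lower. Of 18 tested genes of endoplasmic reticulum-associated degradation none was higher and Os9, a lectin that delivers misfolded glycoproteins, was lower at -0.47 (edgeR adjusted p 0.0333). Among 13 sensors and eIF2alpha phosphatase genes, Eif2s1, which encodes eIF2alpha itself, was higher at 0.50 (edgeR adjusted p 0.0312). Mbtps1, the site-1 protease that cuts ATF6 and SREBP, was lower at -0.56 (edgeR adjusted p 0.0185). Each was 7.69% of that list, and Os9 was 5.56% of its own. Over all tested genes 4.47% were higher and 5.89% lower. Hspa5 was thus called higher while 18 of the 19 listed chaperones and folding enzymes of its compartment were not called. The difference between them was not tested, and the 1 call was 5.26% of the list, against 4.47% of all tested genes. In that list 14 values were positive and 5 negative, with a median log2 fold change of 0.21. All cKO libraries lay above all controls in 8 of them and below in 2, against 15.7% and 17.3% of all tested genes.

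**Figure D4:**
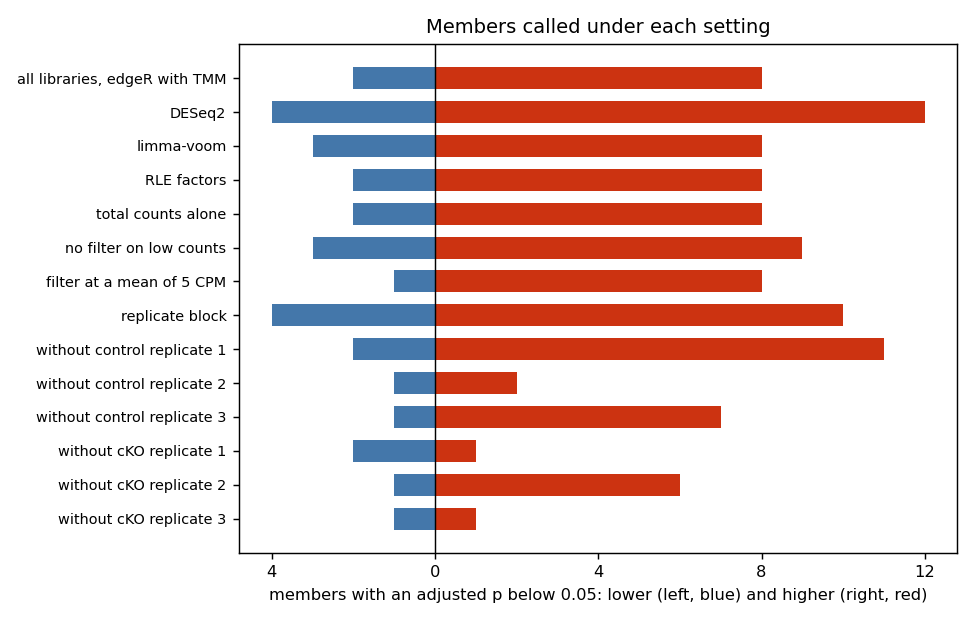
Number of members called higher and lower at an adjusted p under 0.05 (x axis) under the main fit, 7 other settings and 6 fits that each leave out 1 library. The count of higher members runs from 1, without cKO library 1 or 3, to 12 with DESeq2, and the count of lower members from 1 to 4.

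The positions of the called members and of Atf4, all protein-coding, were taken from GENCODE M21 on GRCm38 by Ensembl identifier, since no source used here gives the build of the deposited table. The gene spans were chr10:127290774-127296288 for Ddit3, chr2:167688915-167690418 for Cebpb, chr19:15904678-15947337 for Psat1, chr10:127517123-127522444 for Shmt2, chr6:83305691-83325908 for Mthfd2, chr8:121881150-121907694 for Slc7a5, chrX:101079210-101086020 for Slc7a3, chr2:34771970-34777547 for Hspa5, chr10:59949669-59951834 for Ddit4, chr19:27216484-27254231 for Vldlr and chr15:80255184-80257541 for Atf4.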

How the data were processed

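DP thymocytes of 3 control and 3 Paxbp1 cKO samples were profiled by RNA sequencing. The authors deposited a table with a read count and an FPKM value per gene and library. The submitters' processing notes name fastp 0.18.0, Bowtie2 2.2.8, HISAT2, StringTie 1.3.1 and RSEM, and no source used here gives the genome build, annotation or strand setting. In 29 cells the deposited count is 0 while FPKM is above 0, so the counts may be rounded estimates. The log2 fold changes and p-values that the authors deposited for their own comparison were not used.

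Counts were tested with edgeR 4.0.16 in R 4.3.3 (TMM factors, filterByExpr at a minimum count of 10 and minimum total of 15, quasi-likelihood test of cKO against control, Benjamini-Hochberg adjustment over 11488 genes). The standard error is the log2 fold change divided by the square root of F. FPKM was used only to order genes by level. The pipeline was tested on simulated data. Totals of 18963775 to 26252248 counts limit the precision of genes with few counts, and intervals and floors cover counting error only. No 2 libraries were duplicates.

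The genes named are the members, Paxbp1, from each pathway list the called genes (up to 3 with the smallest adjusted p), and from marker and context lists the 3 most abundant tested genes where they bear on a result. The members and lists were chosen with earlier results of these data known. Alternatives were DESeq2 1.42.0, limma-voom (limma 3.58.1), DESeq2-type factors, total counts, no filter, a filter at a mean of 5 CPM, a replicate block, and leaving out each library. GENCODE M21 held 22267 of the 22322 identifiers and all 39 members.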

Additional observations from a re-analysis of the deposited data

How the results depend on the processing

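No called member changed direction under any alternative, and 6 members that were not called did. When 1 library was left out, the log2 fold change ran from -0.65 to 0.037 for Atf5, from -0.37 to 0.016 for Cebpg and from -2.18 to 0.38 for Pycr1, each highest without control library 2. It ran from -0.039 to 0.13 for Eif2ak1, from -0.18 to 0.38 for Eif2ak4 and from -0.063 to 0.21 for Psph. The 8 members called higher became 12 with DESeq2, 8 with limma-voom, 8 with DESeq2-type factors or total counts alone, 9 without a count filter, 8 with a filter at a mean of 5 CPM, and 1 to 11 when 1 library was left out. The 2 called lower became 4 with DESeq2, 3 with limma-voom, 3 without a count filter and 1 with the 5 CPM filter. They stayed at 2 with DESeq2-type factors or total counts alone, and became 1 to 2 when 1 library was left out. The 5 called with the fold condition became 2 to 7 when 1 library was left out, and the median log2 fold change of 0.48 became 0.39 to 0.59. In the pathway lists, the 8 called higher became 17 with DESeq2 and 2 to 15 when 1 library was left out, and the 2 called lower became 0 to 4. Over all genes, DESeq2 called 943 higher and 969 lower, against 514 and 677, and leaving out 1 library gave 42 to 1000 higher and 78 to 1030 lower.

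Deviations of same-numbered libraries from their group means correlated at 0.0451, 0.0377 and -0.03. Such values do not settle whether replicate numbers mark pairs of libraries. The summed levels of the members and of the immediate early genes were lowest in library 2 of both groups. With a replicate block, 10 members were higher and 4 lower: Herpud1, Jdp2, Slc3a2, Slc1a5 and Xbp1 were gained, and Mthfd2 was lost with an adjusted p of 0.0539. With 3 libraries per group, the calls near the threshold depend on single libraries, and the cause was not tested. Members with few counts, such as Asns, Chac1 and Gdf15, could not be resolved at this depth.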

Other observations

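Control library 1 differed from the other controls in several members. Its level of Eif2ak3 was 374 CPM, inside the cKO range of 352 to 416 CPM, against 82.1 and 116 CPM in the other controls. Its Trib3 level of 11.2 CPM and Ddit3 level of 69.9 CPM were also the highest of the controls, whereas its Psat1, Shmt2 and Mthfd2 levels of 44.7, 77.7 and 26.0 CPM were the lowest. Paxbp1 had 774 counts in that library and 318 and 400 in the other controls.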
